A study of Mus musculus with 8 samples.

Results

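The genes described here are 9 Toll-like receptor genes, Tlr1, Tlr2, Tlr3, Tlr4, Tlr6, Tlr7, Tlr8, Tlr9 and Tlr13, and Unc93b1, which encodes the protein that carries several of these receptors to endosomes. They were taken by symbol, and all 10 had a row among the 26848 genes of the deposited table. RNA was sequenced from RAW264.7 cells, a macrophage-like line raised from a mouse tumour, grown on PEEK (polyetheretherketone), a plastic of orthopaedic and dental implants. The tested surface carried structure at the nanometre and micrometre scale (structured PEEK, 4 libraries), and the comparison surface was smooth PEEK (4 libraries). The labels give no agent, genotype or culture time that differs between the surfaces and mention no Toll-like receptor ligand, so the values are those of cells to which no stimulus is stated to have been added. All libraries come from 1 cell line. The question addressed is whether the genes that sense microbial and nucleic acid ligands differ with the topography under the cells.

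Toll-like receptors are membrane proteins with a leucine-rich ectodomain that binds the ligand and a cytoplasmic domain that recruits adaptor proteins. Tlr1, Tlr2, Tlr4 and Tlr6 act mainly at the cell surface: Tlr2 pairs with Tlr1 or Tlr6 to bind bacterial lipopeptides, and Tlr4 binds lipopolysaccharide together with Ly96 and Cd14. Tlr3, Tlr7, Tlr9 and Tlr13 act in endosomes, where they bind double-stranded RNA, single-stranded RNA, unmethylated CpG DNA and bacterial ribosomal RNA. Macrophages use them to start the transcription of cytokines through the adaptors Myd88 and Ticam1.

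Tlr1 and Tlr6 have stretches of identical sequence that could affect their counts. Of the 45 pairs among the 10 genes, only Tlr1 and Tlr6 shared any run of 31 bases in their GENCODE M21 transcripts, and sequence shared with genes outside the set was not searched. They lie next to each other on chromosome 5, 18467 bases apart with no annotated gene between. Of all runs of 150 bases, the read length, 139 were shared, which is 4.3% of those of Tlr1 and 3.86% of those of Tlr6. The longest shared stretch is 229 bases and lies within the coding sequence of both genes, on the minus strand at chr5:64925537-64925765 in Tlr1 and at chr5:64953828-64954056 in Tlr6 (GRCm38). It is shown because a read that falls inside it matches both genes. Only the other read of its pair, where that lies in differing sequence, could assign it. Each line gives the 5′ to 3′ transcript sequence of 1 gene, with the shared 229 bases in capitals and 15 flanking bases on each side in lower case.
Tlr1: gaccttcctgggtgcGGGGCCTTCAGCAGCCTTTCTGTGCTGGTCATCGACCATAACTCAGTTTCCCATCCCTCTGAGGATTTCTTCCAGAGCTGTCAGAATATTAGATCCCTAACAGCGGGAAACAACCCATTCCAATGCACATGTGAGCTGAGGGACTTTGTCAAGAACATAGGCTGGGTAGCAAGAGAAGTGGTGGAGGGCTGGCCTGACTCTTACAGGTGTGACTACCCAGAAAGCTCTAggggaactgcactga
Tlr6: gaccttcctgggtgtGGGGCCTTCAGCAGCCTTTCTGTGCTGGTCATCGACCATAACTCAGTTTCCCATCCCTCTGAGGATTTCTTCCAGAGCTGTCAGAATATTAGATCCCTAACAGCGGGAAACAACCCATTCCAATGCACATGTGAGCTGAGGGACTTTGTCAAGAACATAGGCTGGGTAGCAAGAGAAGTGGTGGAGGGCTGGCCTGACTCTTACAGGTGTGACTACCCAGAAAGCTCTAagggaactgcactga
How the authors' counter treated such reads is not given in the sources used here, so the values of Tlr1 and Tlr6 carry that uncertainty. The sum of both genes was 30.2 to 34.6 CPM (counts scaled to library size) in structured libraries and 31.6 to 36.6 CPM in smooth libraries. Tlr3 overlaps an antisense gene, Gm45542, over 698 bases, whose highest value in any library was 0.0754 FPKM (fragments scaled to gene length and library depth). No annotated gene overlaps the other members.

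In the table the members lie at chr5:64924679-64933561 (Tlr1), chr3:83836272-83841767 (Tlr2), chr8:45395665-45411080 (Tlr3), chr4:66827584-66930284 (Tlr4) and chr5:64952031-64960048 (Tlr6). The others lie at chrX:167304929-167330558 (Tlr7), chrX:167242696-167264329 (Tlr8), chr9:106222598-106226883 (Tlr9), chrX:106143204-106160493 (Tlr13) and chr19:3935186-3949340 (Unc93b1). The authors' build is not given in the sources used here. For 8 of the 10 genes these positions equal those of GENCODE M21 on GRCm38, and for Tlr1 and Tlr6 the end differs. Each count covers a gene as a unit and does not separate its exons or UTRs.

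Library totals ran from 64479829 to 73098735 count units. For a floor of detection, 1 sequenced fragment was assumed to count as 4 units. Multiples of 4 made up 32.1% of low values, against 25.3% of high values, so the factor is uncertain. The macrophage markers Csf1r, Cd68, Lyz2 and Spi1 were high in all libraries, and Mertk, a receptor of tissue macrophages, was at most 0.0558 FPKM. The 17 measured neutrophil markers summed to 24.6 to 63.9 FPKM in structured libraries and 17.2 to 18.2 FPKM in smooth libraries, with 5 of 8 tested markers called higher on structured PEEK. Defining neutrophil genes such as Ngp and Mmp8 were at 0 in each smooth library and highest in structured libraries 2 to 4. Most of the smooth sum was Mmp9, at 14.4 to 16.8 FPKM in smooth libraries and 13.0 to 14.2 FPKM in structured libraries. Mmp9 was not called. Camp and Mpo were low on both surfaces, at most 0.274 and 0.011 FPKM in any library. The 12 hepatocyte markers summed to 47.7 to 210.7 FPKM in structured libraries and 36.3 to 158.3 FPKM in smooth libraries, and no hepatocyte marker was called. The 12 skeletal muscle markers summed to 9.66 to 12.3 FPKM in structured libraries and 10.3 to 30.6 FPKM in smooth libraries, with 3 of 11 tested markers, Ckm, Tnnc2 and Atp2a1, called lower on structured PEEK. Most of the structured sum was Tnni2, at 8.00 to 9.15 FPKM in structured libraries and 6.01 to 9.99 FPKM in smooth libraries. B cell markers summed to at most 1.41 FPKM and markers of conventional dendritic cells to at most 0.38 FPKM in any library. The plasmacytoid dendritic cell list summed to 51.3 to 56.6 FPKM in structured libraries and 38.2 to 61.9 FPKM in smooth libraries, most of it from Bst2, a gene that macrophages also express. Neutrophils express several Toll-like receptor genes, and the part of these transcripts in the values below was not tested.

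The members fell into a steep order of levels that held on both surfaces. Per length, Unc93b1 was the most abundant at a mean of 78.1 FPKM over the 8 libraries, ahead of Tlr2 at 53.2 FPKM and Tlr7 at 29.7 FPKM. Tlr13 had a mean of 12.6 FPKM, Tlr4 7.13 FPKM, Tlr1 6.30 FPKM, Tlr9 4.26 FPKM and Tlr6 2.65 FPKM. Tlr3, the receptor for double-stranded RNA, was far lower at 0.229 FPKM, and Tlr8 was lowest at 0.0118 FPKM. The ranges over the 8 libraries did not overlap for any neighbours in this order except Tlr4 and Tlr1, where Tlr4 was the higher gene in 6 of 8 libraries. The same order of the 10 genes came from CPM per kilobase of annotated exon length. Both measures rest on the same libraries, so this checks only the gene lengths used. Tlr7 and Tlr8 are neighbours on the X chromosome, 40599 bases apart with no annotated gene between, and stood near opposite ends of this order.

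**Figure D1:**
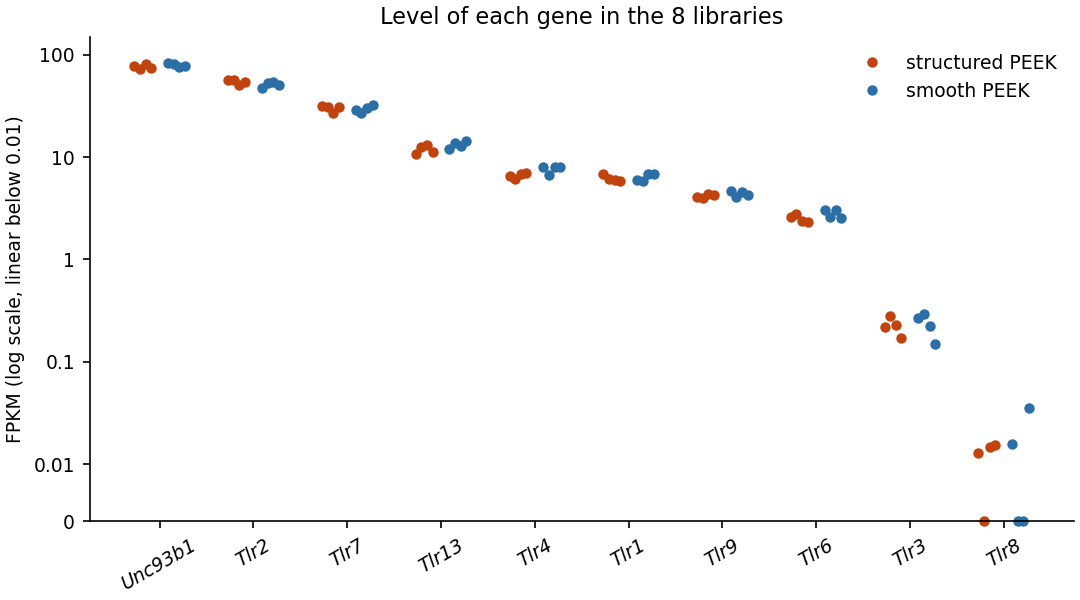
FPKM of each of the 10 genes in each library, on a log axis that is linear below 0.01, with the 4 structured PEEK libraries left of the 4 smooth PEEK libraries for each gene. Levels run from 78.1 FPKM on average for Unc93b1 to 0.0118 FPKM for Tlr8, and the points of both surfaces overlap for all 10 genes.

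The 9 receptor genes together made up 116.6 ± 4.19 FPKM on structured PEEK and 115.5 ± 4.64 FPKM on smooth PEEK (SD, n = 4 each). Tlr2 alone contributed 46.0% to 47.6% of this sum in structured libraries and 42.7% to 47.0% in smooth libraries. The receptors of the cell surface, Tlr1, Tlr2, Tlr4 and Tlr6, made up 59.7% to 61.1% in structured libraries and 57.3% to 60.5% in smooth libraries. These shares are of transcripts per length and say nothing of protein.

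No member was called different between the surfaces. The test was edgeR's quasi-likelihood test with Benjamini-Hochberg adjustment over all tested genes at 0.05, and fold changes are log2 values of structured minus smooth. It tested 9 of the 10 members, leaving out Tlr8 for low counts, and called 0 of the 9, where 3.75% of all 16006 tested genes were called, 1.01% as higher and 2.75% as lower on structured PEEK. At an unadjusted p under 0.05 there was 1 member, Tlr4, against 18.7% of all tested genes. DESeq2 also called 1, again Tlr4, against 8.95% of all tested genes, and limma-voom called 0, against 3.67%. DESeq2 gave no adjusted p for Tlr3, and genes without one were counted as not called in its share. The groups overlapped for all 9 tested members, whereas they did not overlap for 12.2% of all tested genes. The log2 fold change was negative for 7 of the 9, and for 48.8% of all tested genes. The median log2 fold change was -0.06 over the 9 members and 0.0056 over all tested genes, and the median size of a change, whatever its sign, was 0.079 for the members and 0.118 for all tested genes. Titles of 6 libraries carry a biological replicate number and those of the first library on each surface carry none, and no label says that each library had its own culture, so p-values reflect library-to-library spread that may be technical. In bulk RNA a smaller share of cells with a transcript and less of it per cell cannot be told apart.

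**Figure D2:**
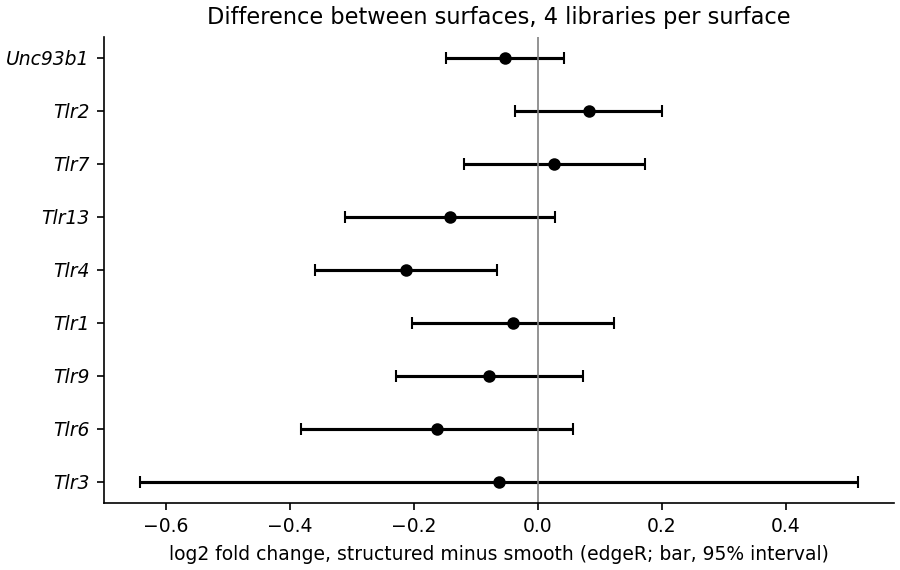
Log2 fold change of structured minus smooth for the 9 tested genes, from edgeR, with 95% intervals, genes ordered from the highest level at the top. The interval leaves out 0 for Tlr4 alone, whose adjusted p was 0.105, and is widest for Tlr3.

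Tlr4, the lipopolysaccharide receptor, was the member nearest to a call. It had 6.60, 6.04, 6.86 and 6.97 FPKM in structured libraries 1 to 4, against 7.93, 6.69, 7.94 and 8.00 FPKM in smooth libraries 1 to 4. Structured library 2 was the lowest of all 8, and smooth library 2 lay among the structured libraries, below structured 3 and 4. The mean was 6.62 ± 0.411 FPKM on structured PEEK and 7.64 ± 0.637 FPKM on smooth PEEK (SD, n = 4 each). The log2 fold change was -0.21 ± 0.07 (SE), with a 95% interval of -0.36 to -0.07 and an edgeR BH-adjusted p of 0.105. DESeq2 gave -0.21 with an adjusted p of 0.0325. On the linear scale the ratio of structured to smooth was 0.863, with an interval of 0.78 to 0.955. The value was -0.23 in structured library 1 alone against the 4 smooth libraries. This comparison, also given for other genes below, was chosen after seeing the data and has no replicate on structured PEEK. Structured library 1 had the fewest neutrophil transcripts of the structured group but still held S100a9 at 3.58 FPKM. The part of such transcripts in the Tlr4 difference was not tested.

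Tlr2, the shared partner of the lipopeptide receptors, had 57.0, 56.8, 51.0 and 54.2 FPKM in structured libraries 1 to 4, against 47.9, 53.1, 54.3 and 50.9 FPKM in smooth libraries 1 to 4. Structured 1 and 2 were above all smooth libraries, and structured 3 and 4 lay within the smooth range. The log2 fold change was 0.08 ± 0.05 (SE), with an interval of -0.04 to 0.20 and an edgeR BH-adjusted p of 0.479. Without smooth 1 the value was 0.04, and after correction for GC content and exon length 0.05. A rise of more than 1.15-fold or a fall below 0.975-fold lies outside that interval.

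The partners of Tlr2 did not pass the test either. Tlr1, which pairs with Tlr2 for triacylated lipopeptides, had 6.85, 6.17, 6.002 and 5.88 FPKM in structured libraries 1 to 4, against 5.98, 5.90, 6.78 and 6.85 FPKM in smooth libraries 1 to 4. Both groups spanned nearly the same range, and the log2 fold change was -0.04 ± 0.07 (SE; edgeR adjusted p = 0.845). It moved between -0.0002 without smooth 4 and -0.09 without structured 1, and was -0.08 after correction for GC content and exon length. For Tlr6, the partner for diacylated lipopeptides, the values were 2.60, 2.76, 2.36 and 2.31 FPKM in structured libraries 1 to 4 and 3.02, 2.58, 3.03 and 2.55 FPKM in smooth libraries 1 to 4. Structured 3 and 4 were below each smooth library and structured 1 and 2 were within the smooth range. Its log2 fold change was -0.16 ± 0.10 (SE; edgeR adjusted p = 0.439), with an interval of -0.38 to 0.06. Tlr1 exceeded Tlr6 by 2.24 to 2.64 times in structured libraries and by 1.98 to 2.68 times in smooth libraries on the FPKM scale.

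**Figure D3:**
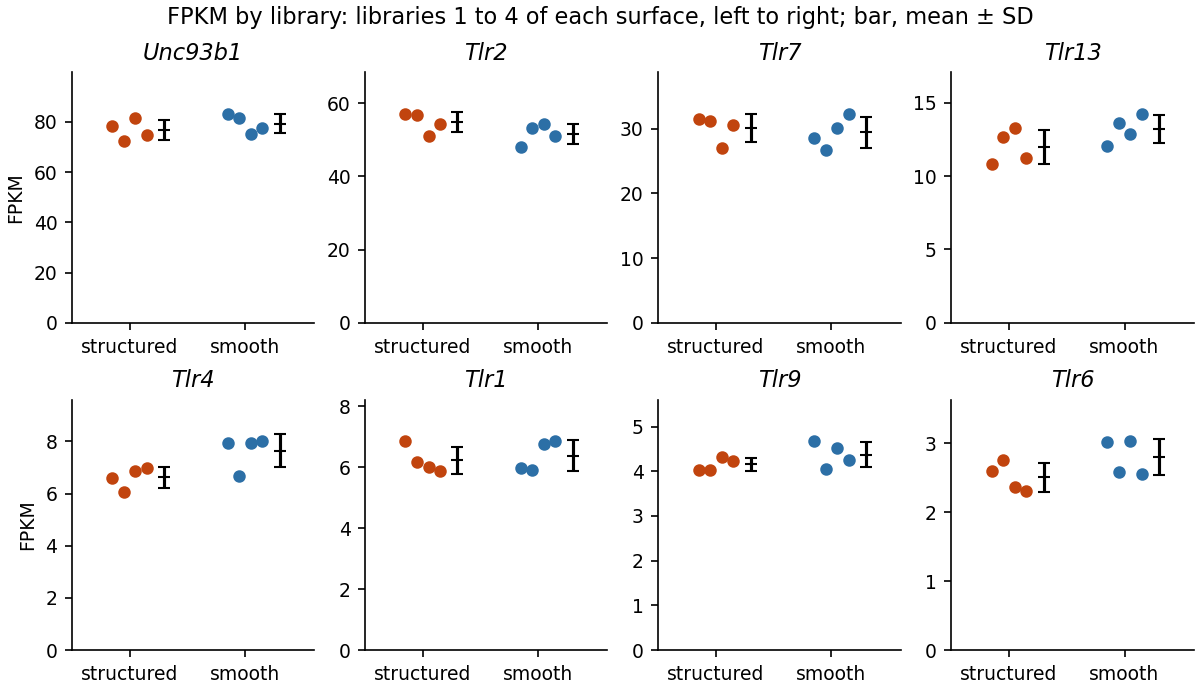
FPKM by library for the 8 genes with a mean above 1 FPKM, each panel with structured libraries 1 to 4 left of smooth libraries 1 to 4, and with the mean and SD of each group as a bar. Each axis starts at 0, and the groups overlap in all 8 panels; the largest separation is that of Tlr4, at 6.62 ± 0.411 and 7.64 ± 0.637 FPKM.

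Among the receptors of endosomes, Tlr7, which binds single-stranded RNA, was the most abundant. It had 31.5, 31.2, 26.9 and 30.6 FPKM in structured libraries 1 to 4, against 28.6, 26.7, 30.1 and 32.2 FPKM in smooth libraries 1 to 4. The highest and the lowest library were both smooth, and the log2 fold change was 0.03 ± 0.07 (SE; edgeR adjusted p = 0.894; interval -0.12 to 0.17), or -0.0084 after correction for GC content and exon length, and between -0.014 and 0.078 with 1 library left out.

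Tlr13, a receptor for bacterial ribosomal RNA in mice, had 10.8, 12.7, 13.3 and 11.2 FPKM in structured libraries 1 to 4 and 12.03, 13.6, 12.8 and 14.2 FPKM in smooth libraries 1 to 4. Structured 1 and 4 were the lowest of all 8 libraries, while structured 2 and 3 lay within the smooth range. Its log2 fold change of -0.14 ± 0.08 (SE) had an interval of -0.31 to 0.03 and an edgeR BH-adjusted p of 0.369. The value was -0.09 without structured 1, and in structured library 1 alone, against the 4 smooth libraries, -0.30. Tlr9, which binds CpG DNA, had 4.03, 4.03, 4.32 and 4.24 FPKM in structured libraries 1 to 4 and 4.67, 4.05, 4.52 and 4.25 FPKM in smooth libraries 1 to 4. All structured values were below the upper 2 smooth values and near the lower 2, and the log2 fold change was -0.08 ± 0.07 (SE; edgeR adjusted p = 0.622), or -0.04 after correction for GC content and exon length.

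Tlr3 was detected at a low level, at 0.217, 0.281, 0.229 and 0.172 FPKM in structured libraries 1 to 4 and 0.267, 0.293, 0.222 and 0.149 FPKM in smooth libraries 1 to 4. These values rest on 61 to 117 count units per library. The smooth libraries spanned both the highest and the lowest value. With a log2 fold change of -0.06 ± 0.26 (SE; edgeR adjusted p = 0.938) and an interval of -0.64 to 0.52, neither direction can be read from these counts, and the sign turned with single libraries left out (-0.23 to 0.067).

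Tlr8 had 4, 0, 4 and 4 count units in structured libraries 1 to 4, against 4, 0, 0 and 10 count units in smooth libraries 1 to 4. Each library was below the 12 units, or 3 fragments at the assumed 4 units each, that a count of 0 allows, so no fold change is given. Outside the chosen members, Tlr5, the flagellin receptor, reached at most 8 count units in any library and Tlr12 also at most 8, and neither was tested. Tlr11 was also to be named, and no value for it is given here.

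Unc93b1 carries the nucleic acid receptors from the endoplasmic reticulum to endosomes. It had 78.3, 72.4, 81.7 and 74.7 FPKM in structured libraries 1 to 4, against 83.1, 81.5, 75.2 and 77.6 FPKM in smooth libraries 1 to 4. Structured 2 and 4 were the lowest libraries and smooth 1 the highest, with the others mixed. It had the narrowest interval of the set, -0.15 to 0.04 around a log2 fold change of -0.05 ± 0.04 (SE; edgeR adjusted p = 0.592), which on the linear scale is a ratio of 0.903 to 1.03. The value was -0.02 after correction for GC content and exon length, -0.03 without structured 2 and -0.08 without structured 3. Its FPKM was 0.603 to 0.736 times the sum of the 9 receptors in structured libraries and 0.628 to 0.753 times that sum in smooth libraries.

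The rest of the pathway was described with 4 lists, of which 86 genes were tested and 2 called, or 2.33%, against 3.75% of all tested genes. By DESeq2 the share was 16 of 86, or 18.6%, against 8.95% of all tested genes, and by limma-voom 3 of 86, or 3.49%, against 3.67%. At an unadjusted p under 0.05 there were 35 of the 86, or 40.7%, against 18.7% of all tested genes. Of the 35, 12 were higher and 23 lower on structured PEEK. The lists were written with earlier results of these data known, and all tested genes were not matched to them in level. Among 25 tested accessory and trafficking genes 1 rose and 0 fell, with 9 (36%) at an unadjusted p under 0.05 and a median log2 fold change of 0.01. The gene that rose was Hsp90b1, the chaperone of the endoplasmic reticulum that folds most Toll-like receptors. It had 478, 477, 455 and 478 FPKM in structured libraries 1 to 4, against 397, 412, 427 and 424 FPKM in smooth libraries 1 to 4. All structured libraries were above all smooth libraries, and the log2 fold change was 0.18 ± 0.04 (SE; edgeR adjusted p = 0.0254). That call was lost without smooth 2, structured 1, structured 2 or structured 4, with edgeR adjusted p-values up to 0.0799. It was also lost by edgeR with no filter beyond a total above 0 (adjusted p = 0.0617). Limma on log2 FPKM did not call Hsp90b1 either (adjusted p 0.0565 to 0.0575).

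Cd14 and Ly96 were named for their role after their values were seen. Cd14, which hands lipopolysaccharide to Tlr4, had 500.1, 519, 494 and 498 FPKM in structured libraries 1 to 4 and 444, 467, 466 and 452 FPKM in smooth libraries 1 to 4. The groups did not overlap, but its log2 fold change of 0.13 ± 0.04 (SE) had an edgeR BH-adjusted p of 0.065. It was called by DESeq2 (adjusted p = 0.00299), and by edgeR with a filter of CPM above 1 (0.0424) or upper quartile scaling (0.0483), and was 0.09 after correction for GC content and exon length (0.334). Ly96, the subunit of the Tlr4 receptor that holds the lipid, had a log2 fold change of -0.24 ± 0.18 (SE; edgeR adjusted p = 0.543), which was -0.08 without smooth 2, -0.16 without structured 4 and -0.01 in structured library 1 alone against the 4 smooth libraries.

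Of 27 tested adaptors and proximal kinases edgeR called 0, with 11 (40.7%) at an unadjusted p under 0.05, of which 4 were higher and 7 lower, and a median log2 fold change of 0.005. The most abundant was Irf5, a transcription factor that Myd88 signalling activates, at 63.9 ± 2.37 FPKM on structured PEEK and 68.2 ± 2.55 FPKM on smooth PEEK (SD, n = 4 each; log2 fold change -0.10 ± 0.04; edgeR adjusted p = 0.234). Myd88 itself had a log2 fold change of 0.13 ± 0.05 (SE; edgeR adjusted p = 0.226), and 0.23 in structured library 1 alone against the 4 smooth libraries. Irf7, a factor of interferon transcription, had the largest value of the list, 0.77 ± 0.21 (SE; edgeR adjusted p = 0.0705), at 1.29 to 2.43 FPKM in structured libraries and 0.89 to 1.53 FPKM in smooth libraries. Irf7 was called by DESeq2 (adjusted p = 0.00276) and by edgeR without smooth 1 (0.046) or without structured 3 (0.0274), and its value was 0.46 by limma on log2(FPKM + 1). Myd88 and Irf7 too were named after their values were seen.

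Of 18 tested negative regulators edgeR called 0, with 7 (38.9%) at an unadjusted p under 0.05, of which 1 was higher and 6 lower, and a median log2 fold change of -0.03. The most abundant was Ptpn6, a phosphatase that restrains immune receptor signalling, with a log2 fold change of 0.09 ± 0.04 (SE; edgeR adjusted p = 0.184).

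Of 16 tested target genes of Toll-like receptor signalling 1 fell and 0 rose, with 8 (50%) at an unadjusted p under 0.05 and a median log2 fold change of -0.02. The gene that fell was Nos2, the inducible nitric oxide synthase, at 15.1, 13.1, 12.8 and 13.5 FPKM in structured libraries 1 to 4, against 19.9, 16.0, 17.3 and 16.4 FPKM in smooth libraries 1 to 4. Its groups did not overlap (log2 fold change -0.36 ± 0.07, edgeR adjusted p = 0.0214). The call was lost without smooth 3, structured 2 or structured 4, with edgeR adjusted p-values up to 0.0779. It was also lost by edgeR with no filter beyond a total above 0 (adjusted p = 0.0594). Limma on log2 FPKM did not call Nos2 either (adjusted p 0.0589 to 0.0651). In structured library 1 alone, against the 4 smooth libraries, the value was -0.22. The 2 points of the list at high fold change in the plot of pathway genes are the cytokine genes Il1b and Il1a, both below 1 FPKM in each library and not called.

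**Figure D4:**
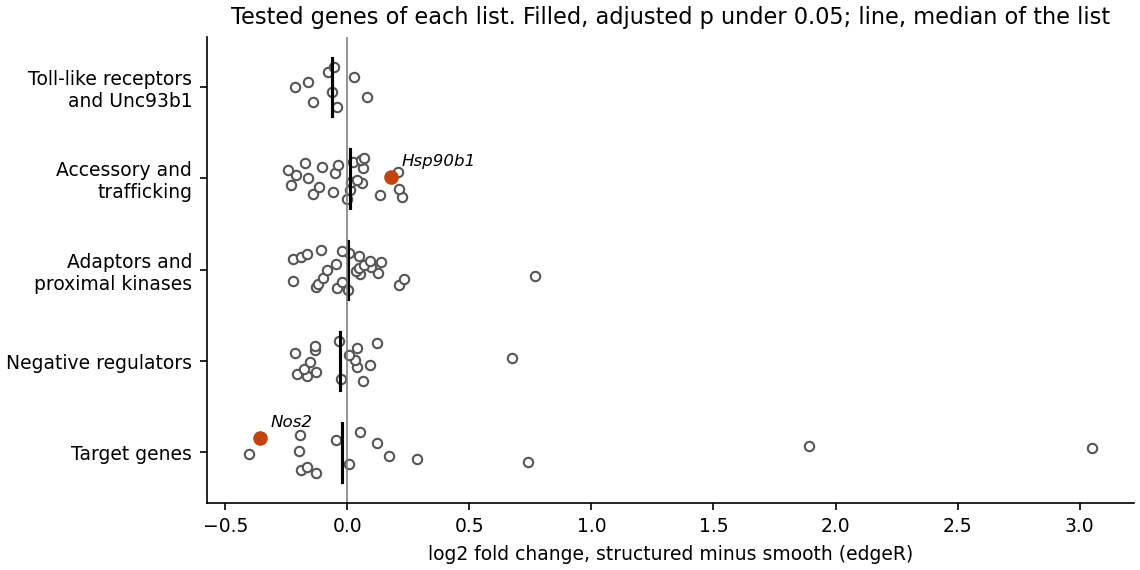
Log2 fold change of structured minus smooth for each tested gene, 1 point per gene, in rows for the receptors with Unc93b1 and for the 4 pathway lists, with the median of each row as a line. Filled points passed the test: Hsp90b1 at 0.18 and Nos2 at -0.36, and no point in the row of receptors is filled.

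The genes whose log2 CPM varied most like that of the 4 most abundant members were looked for among 7061 tested genes with a mean of at least 5 FPKM, by Pearson's r over the 8 libraries and as a description with no test. With so few libraries and so many genes, values above 0.9 are easily found. Unc93b1 was most like Lpcat4, a lysophospholipid acyltransferase gene (r = 0.960), Arrb2, which encodes beta-arrestin (0.941), and Emc10 (0.940). For Tlr2 they were Cwf19l1 (0.982), the RNA helicase gene Mtrex (0.952) and the translation factor gene Eif3l (0.947). For Tlr7 they were the mitochondrial ribosomal RNA mt-Rnr2 (0.945), Zzz3 (0.940) and the ubiquitin-activating enzyme gene Uba6 (0.927). Tlr13 was most like Mpp1 (0.957), the carrier gene Slc25a24 (0.941) and Plin2, which encodes a lipid droplet coat protein (0.937). None of these 12 genes was called between the surfaces by edgeR.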

How the data were processed

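RNA-seq of 8 RAW264.7 libraries was analysed from 1 table. Per the labels' protocols, polyadenylated RNA was selected, dUTP went into the second strand, the adapters held molecular identifiers, and pairs of 150-base reads were sequenced; whether identifiers were collapsed is not stated. Libraries are numbered as in the library names. The submitters' processing notes name cutadapt 1.9 for trimming and HISAT2 2.2.1 for alignment. Which counter, strand setting and build were used is not stated in the sources at hand. The deposited estimated counts are whole numbers, and multiples of 4 are in excess among low values (the value 4 occurred 8018 times, against 3344 times for 3 and 2180 times for 5). The authors normalized the deposited FPKM values to gene length and depth, per the file headers.

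Counts were tested with edgeR 4.0.16 under R 4.3.3: filterByExpr (minimum count 10), then TMM scaling, then a two-sided quasi-likelihood test for structured minus smooth over all 16006 tested genes, adjusted by Benjamini-Hochberg. Intervals are 95% t intervals from the fit. CPM uses the TMM-scaled library size. The floor of 3 fragments covers counting error alone. The members and lists were chosen with earlier results of these data known, and no set was tested. Named genes were all members, Tlr5, Tlr11 and Tlr12, and from each list up to 4 members past the threshold or, with none, the most abundant. Alternatives used limma 3.58.1, DESeq2 1.42.0, other filters and scalings, counts divided by 4, a correction for GC content and exon length (both known for 99.9% of the genes tested), a replicate block and libraries left out. On counts simulated for structured against smooth, over 15518 genes, edgeR found 96 of 100 genes given a log2 change of 1 and 40 of 100 given 0.3, all drawn from genes with a mean count of at least 300 units, and called 12 of 15318 unchanged genes. The table matched GENCODE M21 by gene identifier for 26779 genes.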

Additional observations from a re-analysis of the deposited data

Results flagged for a closer look

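In the groups of 4 libraries, 6 of 40 had 1 library far from the other 3 by Dixon's test at 95%, a test that by chance marks about 1 in 20 groups. That rate is for continuous values and is no guide for counts of so few fragments. Where the other 3 libraries are at 0, any value above 0 is marked. Among the receptors these were values under the floor of 3 fragments: Tlr8 at 0 CPM in structured library 2 (the nearest other structured library had 0.0569 CPM), Tlr12 at 0.115 CPM in structured library 1 and 0.0555 CPM in smooth library 4, and Tlr5 at 0.0277 CPM in smooth library 4, with the other 3 libraries of those groups at 0. Cd14 stood high in structured library 2, at 967.7 CPM against 918.3 CPM in the nearest structured library. Ptpn6 stood low in smooth library 4, at 503.3 CPM against 539.4 CPM in the nearest smooth library.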

How the results depend on the processing

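No member was called by edgeR under the other filters and scalings, by limma-voom, by limma on log2 FPKM, with counts divided by 4, after GC and length correction or with any 1 library left out. The exceptions were 1 member, Tlr4, with DESeq2 (-0.21) and 1, again Tlr4, with a replicate block (-0.21, adjusted p = 0.049). Irf7 was also called with the replicate block (adjusted p = 0.0393). Without 1 library Tlr4 ranged from -0.27 to -0.18, Tlr3 from -0.23 to 0.067 and Tlr7 from -0.014 to 0.078. Of 198 values of the 9 members under 22 alternatives 6 turned sign: Tlr3 to 0.0056 and 0.067 without smooth 1 or 2 and 0.048 without structured 4, Tlr7 to -0.0084 after GC and length correction and -0.014 without smooth 2, and Tlr1 to 0.087 without structured 2, 3 and 4 together, an alternative chosen after seeing the data because these hold the most neutrophil transcripts; the cause was not tested. Calls over all genes numbered 601, and 189 with no filter, 1433 with DESeq2, 191, 242 and 187 with limma on log2 FPKM (pseudocount 0.5, 0.1 and 1 in that order), 337 after GC and length correction, 7 without structured 2, 3 and 4 together and 88 to 597 without 1 library. Fewer libraries enter those last fits. Lower calls were 440 of the 601, against 880 of 1433 with DESeq2 and 189 of 337 after GC and length correction. Calls in the 4 lists numbered 2, and 0 with no filter or on log2 FPKM, 5 with a filter of CPM above 1, 16 with DESeq2, 4 with a replicate block, 0 without structured 2, 3 and 4 together and 0 to 7 without 1 library. The labels' numbers were not taken to pair the libraries, and the replicate block left 499 calls over all genes. Deviations from group means correlated at -0.159 to 0.076 for same-numbered libraries and at -0.211 to 0.197 for the others. Centring within groups of 4 constrains these correlations, so they do not settle whether the libraries were paired. Depth limits Tlr3 and Tlr8.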

Other observations

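Within the 4 pathway lists the groups did not overlap for 17 of 86 tested genes, or 19.8%, and 15 of those 17 were not called. Over all tested genes, not matched to the lists in level, the share that did not overlap was 12.2%. The following were named after their values were seen. Traf3, an adaptor ligase shared by Toll-like receptors and other receptors, had 9.36, 8.93, 9.75 and 9.79 FPKM in structured libraries 1 to 4, against 10.6, 10.8, 10.7 and 10.2 FPKM in smooth libraries 1 to 4, with an edgeR BH-adjusted p of 0.052. Irak4, the kinase that Myd88 recruits first, had 3.58, 3.53, 4.07 and 3.64 FPKM in structured libraries 1 to 4, against 4.18, 4.35, 4.38 and 4.33 FPKM in smooth libraries 1 to 4 (log2 fold change -0.22 ± 0.06; edgeR adjusted p = 0.065). Irak3, which inhibits that kinase step, had 6.61, 6.23, 7.16 and 5.999 FPKM in structured libraries 1 to 4, against 7.44, 7.95, 7.19 and 7.32 FPKM in smooth libraries 1 to 4 (log2 fold change -0.21 ± 0.06; edgeR adjusted p = 0.0957). The chemokine gene Cxcl2 had 18.2, 20.5, 20.5 and 18.2 FPKM in structured libraries 1 to 4, against 32.8, 25.9, 22.7 and 20.8 FPKM in smooth libraries 1 to 4 (log2 fold change -0.40 ± 0.11; edgeR adjusted p = 0.0742).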
